A study of Rattus norvegicus with 4 samples.

Results

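The vascular endothelial growth factor (VEGF) system was described at the RNA level in the rat adrenal medulla after immobilization stress. It was taken as 10 genes: the ligand genes Vegfa, Vegfb and Vegfc, the receptor genes Flt1, Kdr and Flt4, the co-receptor genes Nrp1 and Nrp2, and the angiopoietin gene Angpt2 with the angiopoietin receptor gene Tek. Members were found by name in the annotation of the array, keeping probe sets (groups of short probes that report on one transcript) that name a single gene. All 10 genes were found, with 16 probe sets of the 31042 on the array that are not controls. Total RNA of adrenal medulla was hybridised to 4 arrays, 2 from unstressed rats and 2 from rats that had been immobilized for 2 h, with no other treatment, genotype, strain, sex or age given in the labels for either group. Whether each array holds the RNA of 1 rat or a pool is not stated in the labels, and p-values here measure only how far these samples vary, and that variation may be technical. With so few arrays every value has limited precision.

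VEGF ligands are secreted and bind receptor tyrosine kinases on endothelial cells, the cells that line vessels. Kdr carries most of the growth signal of Vegfa, Flt1 binds Vegfa and Vegfb and is also made as a soluble form that traps ligand, and Flt4 is the receptor of Vegfc on lymphatic and some blood vessels. Neuropilins hold ligand next to these receptors, and Angpt2 and its receptor Tek set how stable a vessel is. The adrenal medulla has a dense bed of fenestrated capillaries into which chromaffin cells release adrenaline and noradrenaline. In whole tissue a lower value can come from fewer cells of a type or from less RNA per cell, and the arrays cannot tell these apart.

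After immobilization the ligand gene Vegfc was 1.97-fold higher and 1 of the 3 probe sets of the receptor gene Flt1 was 2.74-fold higher, while the other 2 Flt1 probe sets were within 1.10-fold of the unstressed level. The receptor gene Kdr was 1.73-fold lower, the co-receptor gene Nrp1 was 1.46-fold lower at 1 of its 2 probe sets, and the ligand gene Vegfb was 1.37-fold lower. Neither probe set of Vegfa passed the test, nor did Flt4, Angpt2, Tek or the brighter probe set of Nrp2. The 2 rises were the steadier results. The falls of Vegfb and Nrp1 lay near the threshold, and none of the 3 falls passed once each array was centred on its own median.

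Differences are given on the scale of log2(intensity + 16), immobilized minus unstressed, with the standard error (SE) and adjusted p of limma, a linear model that shares the spread between probe sets. The Benjamini-Hochberg adjustment ran over the 18625 probe sets with a mean level at or above the 40th percentile, an intensity of 543.8. Of the 16 member probe sets 13 passed that filter, and 2 of them were higher and 3 lower at an adjusted p under 0.05. Over all tested probe sets 11.7% were higher and 19.4% lower, together 31.1%, so that 5 of 13 members is close to the share on the whole array. The groups did not overlap at 7 of the 13, where 67.8% of all tested probe sets did not overlap. The median log2 change was -0.04 for the 13 and -0.12 for all tested probe sets. Centring each array on its median moved that overall median by 0.14, and the split between rises and falls moved with it: 37.6% of all calls were rises as deposited, 44.9% after quantile normalization (13.9% of probe sets higher and 17.0% lower) and 53.2% after median centring (15.3% higher and 13.4% lower). Among the members the same settings gave 2 higher and 3 lower, 2 and 2, and 2 and 0. Intensities of different probe sets depend on their probes and are not compared between genes.

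**Figure D1:**
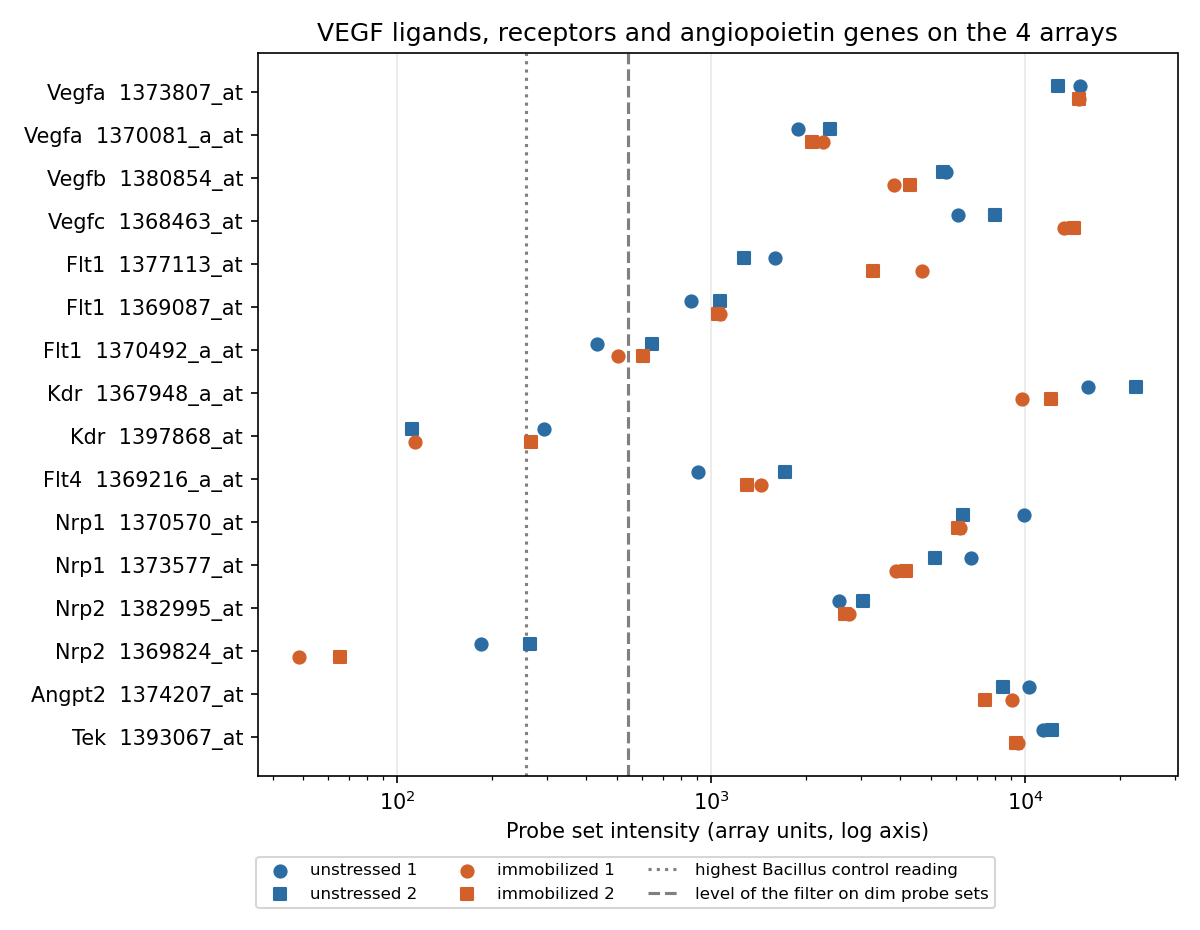
Intensity of the 16 member probe sets on each of the 4 arrays, on a log axis, with blue for unstressed and orange for immobilized arrays. The dotted line marks the highest reading of the Bacillus controls (257) and the dashed line the filter level (543.8). The 2 orange points lie right of both blue points for Vegfc and for Flt1 1377113_at, and left of them for Kdr 1367948_a_at, Vegfb, Tek, both Nrp1 probe sets and the dim Nrp2 probe set.

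Vegfc, a ligand of Flt4 and Kdr best known for growing lymphatic vessels, had intensities of 6107 and 8044 in unstressed rats and 13327 and 14323 after immobilization. Both immobilized arrays lay well above both unstressed ones. The log2 change was 0.98 ± 0.16 (SE, n = 2 per group), with a 95% interval of 0.60 to 1.36 and an adjusted p of 0.00535 in limma. Relative to the median change of all tested probe sets it was 1.10. Without immobilized 2 the change was 0.93 and the adjusted p 0.0652, and the 11 other alternatives kept the call.

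Vegfb, a ligand that binds Flt1 but not Kdr, read 5613 and 5487 unstressed and 3823 and 4304 immobilized. The immobilized readings were the lower on both arrays, and the unstressed pair was close together. The log2 change was -0.45 ± 0.13 (SE, n = 2 per group; adjusted p = 0.042 in limma), which put Vegfb just past the threshold. Relative to the median change of all tested probe sets it was -0.33. It missed the threshold after quantile normalization (adjusted p = 0.0724), after median centring (0.169), with no filter (0.0622), without the intensity trend (0.0787), and without immobilized 1 (0.239), immobilized 2 (0.132) or unstressed 1 (0.0565).

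Vegfa, the main growth factor of the family and one of the genes that respond to low oxygen, is read by 2 probe sets. The first, 1373807_at, gave 14928 and 12753 unstressed and 14850 and 14854 immobilized. The second, 1370081_a_at, gave 1885 and 2385 unstressed and 2265 and 2097 immobilized. In both the unstressed pair enclosed at least 1 immobilized reading, so the groups overlapped. The log2 changes were 0.11 with a 95% interval of -0.20 to 0.42 and 0.04 with an interval of -0.41 to 0.49, and the adjusted p in limma was 0.572 and 0.896. These intervals end well below a log2 change of 1.00. The sign of the first turned after quantile normalization (-0.01), and that of the second did so without unstressed 1 (-0.13), so that no direction is given.

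Flt1, the VEGF receptor with the highest affinity for Vegfa, is read by 3 probe sets, built in the annotation on 3 different source sequences. Probe set 1377113_at, built on an expressed sequence tag, gave 1596 and 1271 unstressed and 4703 and 3285 immobilized. The lower immobilized reading was more than the higher unstressed one, and the immobilized pair was the wider apart. Its log2 change was 1.45 ± 0.23 (SE, n = 2 per group; 95% interval 0.91 to 2.00, adjusted p = 0.00474 in limma). Without immobilized 1 it was 1.20 with an adjusted p of 0.0552, and the 11 other alternatives kept the call.

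The other 2 Flt1 probe sets did not follow. Probe set 1369087_at, built on the RefSeq messenger RNA, gave 861 and 1065 unstressed and 1068 and 1051 immobilized, with a log2 change of 0.14 (95% interval -0.38 to 0.67, adjusted p = 0.657 in limma). Probe set 1370492_a_at gave 433 and 648 unstressed and 505 and 608 immobilized, and its mean lay just under the filter level, so it was not tested. In both probe sets the groups overlapped. The interval of 1369087_at ended below the start of that of 1377113_at.

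**Figure D2:**
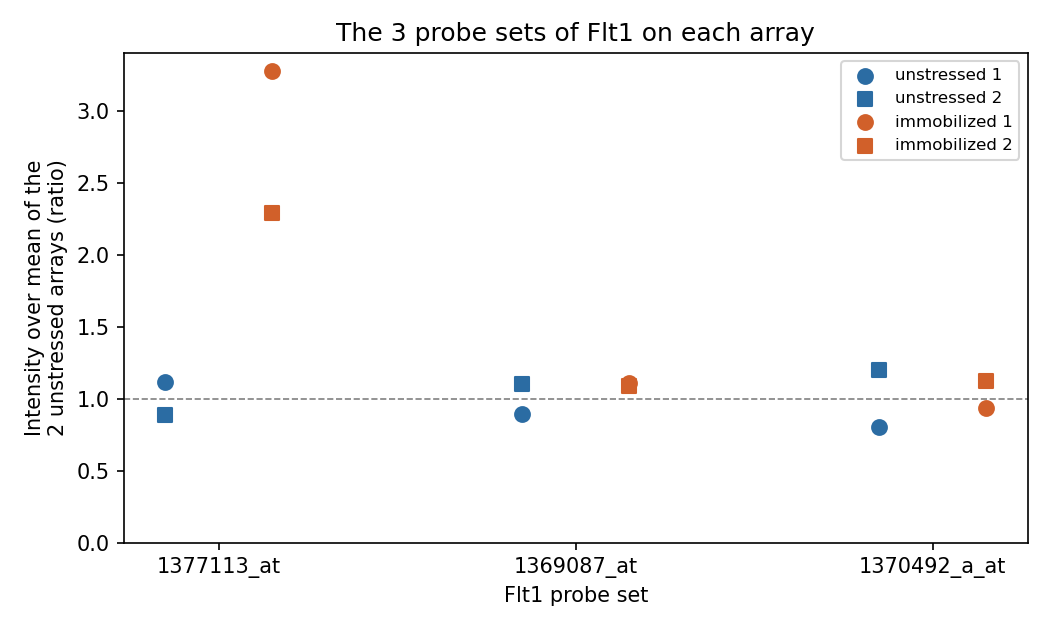
Intensity of each Flt1 probe set on each array, divided by the mean of the 2 unstressed arrays (ratio, axis from 0), with blue for unstressed and orange for immobilized arrays. For 1377113_at both orange points lie above both blue ones, whereas for 1369087_at and 1370492_a_at the points of both groups lie together around 1.

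Set against each other on the same array, 1377113_at over 1369087_at gave an intensity ratio of 1.85 and 1.19 unstressed and 4.40 and 3.13 immobilized. The ratio of 1377113_at over 1370492_a_at was 3.69 and 1.96 unstressed against 9.31 and 5.40 immobilized. Both ratios were higher on both immobilized arrays, with no overlap. The difference of the log2 changes was 1.31 against 1369087_at and 1.39 against 1370492_a_at, and 0.08 between the latter pair. It ranged from 1.00 to 1.62 and from 0.95 to 1.84 with 1 array left out. An exact two-sided permutation test of these differences gave p = 0.33 for each of the first and second comparisons, 0.77 after adjustment over the 7 pairs of probe sets of one gene, and 0.33 is the smallest p that 2 arrays against 2 allow. Which exons or 3' ends of Flt1 each probe set reads was not analysed here, so the probe sets are not assigned to the membrane-bound or the soluble form.

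The promoter of Flt1 is shown because its probe set 1377113_at has the largest member rise, which its other probe sets did not follow. Beside it are those of Vegfc, which also rose, and Kdr, the receptor with the largest fall. Windows were the 250 bases before the gene's start in RefSeq, build GRCr8, written 5′ to 3′ along the gene, and lie at chr12:12333180-12333429 on the plus strand for Flt1, chr16:44560888-44561137 on the minus strand for Vegfc and chr14:32571813-32572062 on the plus strand for Kdr. Capitals mark letters that match 1 of 5 motifs read on both strands: the cAMP response element (CRE) TGACGTCA, the AP-1 site TGANTCA, the hypoxia response core ACGTG or GCGTG, the Egr site GCGNGGGCG and the Nr4a site AAAGGTCA.
Flt1: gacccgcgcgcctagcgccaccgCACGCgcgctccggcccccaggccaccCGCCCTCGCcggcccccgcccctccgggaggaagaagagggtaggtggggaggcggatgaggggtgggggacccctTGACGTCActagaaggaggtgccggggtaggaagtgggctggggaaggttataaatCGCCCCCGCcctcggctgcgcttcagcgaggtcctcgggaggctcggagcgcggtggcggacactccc
Vegfc: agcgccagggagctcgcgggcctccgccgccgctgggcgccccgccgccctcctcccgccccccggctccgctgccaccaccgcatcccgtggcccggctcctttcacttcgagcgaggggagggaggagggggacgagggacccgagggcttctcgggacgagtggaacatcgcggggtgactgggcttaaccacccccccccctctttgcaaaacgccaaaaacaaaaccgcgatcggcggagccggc
Kdr: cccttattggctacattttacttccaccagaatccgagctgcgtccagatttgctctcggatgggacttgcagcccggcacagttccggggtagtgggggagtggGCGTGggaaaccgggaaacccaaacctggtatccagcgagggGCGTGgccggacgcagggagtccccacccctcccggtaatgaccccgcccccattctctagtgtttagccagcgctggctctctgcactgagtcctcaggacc

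The Flt1 window held 1 full CRE, from base 124 to base 117 before the start, with 2 Egr matches and 1 hypoxia response core. Of the 33465 RefSeq promoter windows searched 1.59% held the CRE, 4.29% the Egr site and 36.7% the hypoxia response core. The Vegfc window held none of the 5 motifs, and the Kdr window held 2 hypoxia response cores and no other. RefSeq windows were matched for 8 of the 10 members, 9 windows in all since Vegfa has 2 starts. Among these 9 the CRE was found only in that of Flt1, the Egr site in those of Flt1 and Vegfb, and the hypoxia response core in 5, those of Flt1, Kdr, Nrp1, Nrp2 and Vegfb. The AP-1 site (6.34% of all windows) was in none, and the Nr4a site (1.24%) was in 1 of the Vegfa windows. Tek and Angpt2 have no window in the table. Bases beyond the 250 before each start were not searched, so a window without a motif does not show that the gene lacks it. A match of letters is a description of the sequence, and binding was not measured.

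Kdr, the receptor that carries most of the endothelial response to Vegfa, gave 15830 and 22501 unstressed and 9781 and 12099 immobilized at probe set 1367948_a_at. Both immobilized readings were the lower, although the unstressed pair was itself spread by 0.51 on the log2 scale. The log2 change was -0.79 ± 0.20 (SE, n = 2 per group; 95% interval -1.26 to -0.33, adjusted p = 0.0238 in limma), and -0.67 relative to the median change of all tested probe sets. The adjusted p in limma was 0.0517 after median centring and 0.0511 without the intensity trend. After quantile normalization it was 0.00806, with a change of -0.91. The change was -0.64 without immobilized 1, -0.95 without immobilized 2 and -1.05 without unstressed 1. Without unstressed 2, the highest reading, it was -0.54. Of 12 alternatives 8 kept the call. The second Kdr probe set, 1397868_at, read 293 and 111 unstressed and 114 and 266 immobilized. The 27 control probe sets for Bacillus genes read 2.18 to 257, close to these values, so it was under the filter and tells nothing of the change.

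Values of other cell types were set beside the fall of Kdr. Of 17 tested markers of blood vessel endothelium 2 rose, 2 fell and 13 did not pass, with a median log2 change of 0.14. The summed intensity of the 18 on the array was 88797 and 102249 unstressed and 93431 and 103787 immobilized, so the groups overlapped, and no marker on the array stayed within the Bacillus range. Sox17, an endothelial transcription factor, rose by 2.54, and Esam, an endothelial adhesion molecule named here after its values were seen, rose by 0.59. Clec14a, an endothelial lectin, and S1pr1, the receptor for the lipid sphingosine 1-phosphate, had log2 changes of -1.22 and -0.77. The 13 that did not pass lay between -0.14 (Ramp2) and 0.54 (Pecam1). Leaving out immobilized 1 gave 1 rise and 0 falls in this list, and so did leaving out immobilized 2, while without unstressed 2 there were 4 rises and 2 falls.

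Adrenal cortex RNA was present too, with a summed intensity of 10 cortex markers of 400387 and 448321 unstressed against 475964 and 338702 immobilized, and 1 of them, Cyp17a1, within the Bacillus range on every array. The highest reading on immobilized 2 was 52133, against 70582 and 75600 unstressed and 74590 on immobilized 1. How far this lowered the sums, or the fits that keep only immobilized 2 of its group, was not tested. Of 9 tested cortex markers 2 rose and 7 did not pass, with a median of -0.24. Scarb1, the receptor that takes up cholesterol from lipoproteins, rose by 1.76, and Nr5a1, a transcription factor of steroid-making cells, rose by 0.47. Cyp11b1, the cortical enzyme that makes corticosterone, did not pass (log2 change -0.64, adjusted p = 0.0591 in limma). It is named after its values were seen because its readings, 23128 and 35901 unstressed against 18432 and 18635 immobilized, were highest on the array where Kdr was highest. The cortex markers Cyp11a1, Cyp21a1, Hsd3b1 and Akr1b7 were highest on that array too. By contrast Star, Fdx1 and Scarb1 were highest on immobilized 1, and Nr5a1 on immobilized 2. Without immobilized 1 the cortex list had 1 rise and 3 falls, without immobilized 2 it had 1 rise and 0 falls, and without unstressed 1 it had 1 and 1. The part of cortex tissue in the fall of Kdr was not tested.

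The 12 chromaffin cell markers on the array summed to 397583 and 355245 unstressed against 477212 and 346698 immobilized. These sums too were lowest on immobilized 2, the array with the lowest top reading. Of these 12 markers, all tested, 1 rose and 11 did not pass, with a median of 0.09. The rise was that of Slc18a2, the transporter that loads catecholamines into vesicles, by 1.50 (adjusted p = 0.00209 in limma), with 1.27 and 1.64 at its other probe sets. Without unstressed 1 the list had 3 rises, and without immobilized 2 it had 2. Of 5 tested markers of Schwann and sustentacular cells, Gfap, a filament protein of glia, rose by 1.76, S100b, a calcium-binding protein, had -0.59 and passed, and Mbp, Pmp22 and Sox10 had 0.48, 0.24 and -0.14 and did not pass. Dimmer probe sets of Mbp had -0.13 and 0.44, and that of Pmp22 had 0.01. Without unstressed 1 that list had 3 rises and 1 fall, and without immobilized 1 or immobilized 2 it had 1 rise and 0 falls. None of 10 tested leucocyte markers passed in limma, 2 at an unadjusted p under 0.05, and the largest changes were those of C1qb, a complement subunit, at 0.42 and Mrc1, the mannose receptor, at 0.37. Without unstressed 2 there were 3 rises. The red blood cell markers Hbb and Alas2 had 0.15 and 0.30, and neither passed (adjusted p = 0.748 and 0.453 in limma).

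Flt4, the Vegfc receptor, gave 909 and 1711 unstressed and 1438 and 1301 immobilized, so both immobilized readings lay between the unstressed ones. The log2 change was 0.13 with a wide 95% interval of -0.62 to 0.88 (adjusted p = 0.783 in limma), and without unstressed 1 it was -0.32. Of 6 lymphatic endothelial markers on the array 3 were tested, while Pdpn, Ccl21 and Mmrn1 lay under the filter level. Which cells of the tissue gave the values of the tested markers was not tested. Reln, a secreted glycoprotein, rose by 1.10, and Prox1, a transcription factor of lymphatic identity, had a log2 change of -1.07 (adjusted p = 0.0016 in limma). Lyve1, a hyaluronan receptor, had 0.55 and did not pass (0.0578). Without immobilized 2 there were 0 rises and 1 fall among these markers, and without unstressed 2 there were 2 rises and 1 fall.

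Nrp1, the neuropilin that binds Vegfa beside Kdr, was read by a pair of probe sets of similar direction. Probe set 1373577_at gave 6713 and 5180 unstressed and 3888 and 4166 immobilized, a log2 change of -0.55 ± 0.16 (SE, n = 2 per group; adjusted p = 0.0418 in limma). Probe set 1370570_at gave 9921 and 6358 unstressed and 6209 and 6124 immobilized, a change of -0.36 with a 95% interval of -0.86 to 0.13 (adjusted p = 0.228). The immobilized readings were below the unstressed ones at both, but at 1370570_at unstressed 2 lay only a little above them. The changes of the probe sets differed by 0.18, with overlapping groups. The call at 1373577_at was lost after quantile normalization (adjusted p = 0.0603) and median centring (0.102), with no filter (0.0656), without the intensity trend (0.0766), and without immobilized 1 (0.213), immobilized 2 (0.164) or unstressed 1 (0.0972). Conversely 1370570_at passed without unstressed 2 (-0.68, adjusted p = 0.00523).

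Nrp2, the neuropilin that partners Flt4, gave 2555 and 3039 unstressed and 2754 and 2674 immobilized at probe set 1382995_at. The immobilized readings lay between the unstressed ones, and the log2 change was -0.04 (95% interval -0.43 to 0.35, adjusted p = 0.883 in limma), and the sign turned after median centring (0.10). The dim probe set 1369824_at gave 184 and 264 unstressed and 48.7 and 65.6 immobilized. Of these readings 1, that of unstressed 2, lay above the highest Bacillus control, so neither group was shown to lie above background and the size of the change is not given. With no filter the immobilized readings were called lower (adjusted p = 0.0406 in limma), in a fit that called 10.6% of all 31042 probe sets lower.

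Angpt2, the angiopoietin that loosens vessels and is stored in endothelial cells, gave 10258 and 8500 unstressed and 9081 and 7461 immobilized. The groups overlapped, and the log2 change was -0.18 with a 95% interval of -0.55 to 0.19 (adjusted p = 0.414 in limma). Tek, the receptor of the angiopoietins, gave 11383 and 12215 unstressed and 9456 and 9328 immobilized. Both immobilized readings of Tek were below both unstressed ones and each pair was tight, but the difference was small. Its log2 change was -0.33 ± 0.12 (SE, n = 2 per group; 95% interval -0.61 to -0.05), with an adjusted p of 0.0745 in limma that became 0.0319 after quantile normalization (-0.39) and 0.342 after median centring (-0.19).

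**Figure D3:**
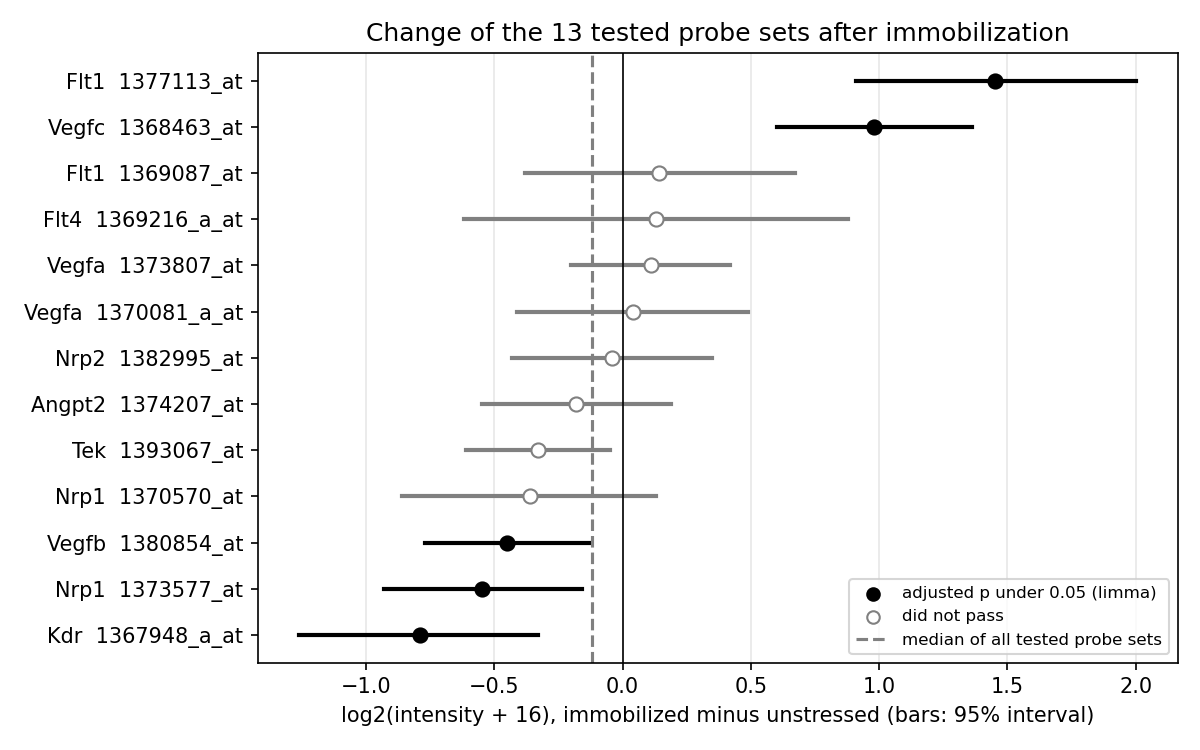
Log2 change of the 13 tested member probe sets, immobilized minus unstressed, with 95% intervals of the moderated fit. Filled points passed an adjusted p of 0.05 and the dashed line is the median of all tested probe sets, -0.12. Flt1 1377113_at at 1.45 and Vegfc at 0.98 stand apart on the right, and Kdr at -0.79 is the farthest left.

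Other ligands and receptors of vessel growth were measured around the members. Of 25 listed genes 22 were on the array and 13 were tested, of which 2 rose, 4 fell and 7 did not pass, with a median log2 change of -0.09. Angptl2, an angiopoietin-like secreted protein, had -1.34, Met, the receptor of hepatocyte growth factor, had -1.29, and Angptl4, an inhibitor of lipoprotein lipase, had -1.11, while the smallest fall was that of Ephb4, an ephrin receptor, at -0.43. The 2 that rose were Jag1, a Notch ligand, by 1.00 and Pdgfa, a platelet-derived growth factor, by 0.97. Without immobilized 1 none of these 6 calls passed, and without immobilized 2 there were 0 rises and 2 falls. Without unstressed 2 there were 2 rises and 2 falls. The filter also kept out genes whose immobilized readings were low. Aplnr, the apelin receptor of endothelial cells, read 1475 and 1004 unstressed and 150 and 177 immobilized, and Pdgfd, a platelet-derived growth factor, read 490 and 691 against 116 and 94.1. With no filter both were called lower (adjusted p = 0.00393 and 0.0105 in limma), and since their immobilized readings lie within the Bacillus range no size is given. They are named after their values were seen. The remaining VEGF and angiopoietin ligands, Vegfd, Pgf, Angpt1 and Angpt4, lay under the filter level, with readings from 183 to 530.

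Neuropilins also serve class 3 semaphorins together with plexins. Of 10 tested genes of that group 1 rose, 1 fell and 8 did not pass, with a median of 0.06. Plxna2, a plexin that pairs with neuropilins, rose by 1.49, from 762 and 732 to 2030 and 2239, and its other probe sets had 0.89 and 1.37. Plxnd1, an endothelial plexin, fell from 4938 and 4160 to 1929 and 1447, a log2 change of -1.43 (adjusted p = 0.00299 in limma). Without unstressed 1 this group had 1 rise and 2 falls, and without unstressed 2 it had 2 rises and 1 fall.

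Of 25 tested hypoxia-inducible factors and genes of the response to low oxygen, to which Vegfa belongs, 8 rose, 1 fell and 16 did not pass, with a median of 0.03. Pfkfb3 and Pfkfb4, enzymes that speed glycolysis, rose by 2.24 and 2.04, and Ndrg1 by 1.00. Hif1a and Epas1, the oxygen-regulated subunits, had 0.35 and 0.21 and did not pass (adjusted p = 0.0957 and 0.409 in limma). A dimmer Epas1 probe set had -0.43. Leaving out immobilized 1 gave 2 rises and 0 falls, and so did leaving out immobilized 2, while without unstressed 1 there were 7 rises and 2 falls.

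Of 21 tested genes that VEGF is known to induce in endothelial cells, 17 rose, 1 fell and 3 did not pass, with a median of 2.01. Nr4a3 rose by 5.84 and Nr4a1 by 3.13, both orphan nuclear receptors. Ptgs2, the inducible cyclooxygenase, also rose, from 156 and 111 to 2751 and 4566, but its unstressed readings lie within the Bacillus range, so that its size and its rank among the rises are set in part by background. On both unstressed arrays Ptgs2, Egr2, Dusp5 and Nos3 read under the filter level, so they were tested only through their immobilized readings. Many of this list are early response genes in most cell types, and their rise in these arrays was already known when the list was made, so the count is not independent evidence. Leaving out immobilized 1 gave 12 rises and 1 fall, and so did leaving out immobilized 2.

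Of 27 tested genes for signalling and trafficking of VEGF receptors 5 rose, 3 fell and 19 did not pass (median 0.11). Sh2d2a, an adaptor that binds activated Kdr, rose from 348 and 451 to 2725 and 1858, a log2 change of 2.46 (adjusted p = 0.0014 in limma). Its unstressed readings lay under the filter level, so it was tested only through its immobilized readings. With no filter its adjusted p was 0.0033 in limma. Ptpn1, a tyrosine phosphatase, rose by 1.05, though a dimmer probe set had 0.30, and Gab1, a docking protein, had -1.22. Without immobilized 1 the counts were 2 rises and 1 fall, and without immobilized 2 they were 1 and 1. Of 12 tested inhibitors of angiogenesis 5 rose, 1 fell and 6 did not pass (median 0.30). Adamts1, a protease that can bind Vegfa, rose by 2.89, and Spry2 and Spry4, inhibitors of growth factor signalling, rose by 2.89 and 1.37. The counts were 3 and 0 without immobilized 1, 4 and 0 without immobilized 2, and 5 and 2 without unstressed 2. Of 11 tested markers of pericytes and smooth muscle, the cells around vessels, 4 rose and 7 did not pass (median 0.20), with Acta2, smooth muscle actin, at 1.36, Mcam at 1.08 and Tagln at 0.84.

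**Figure D4:**
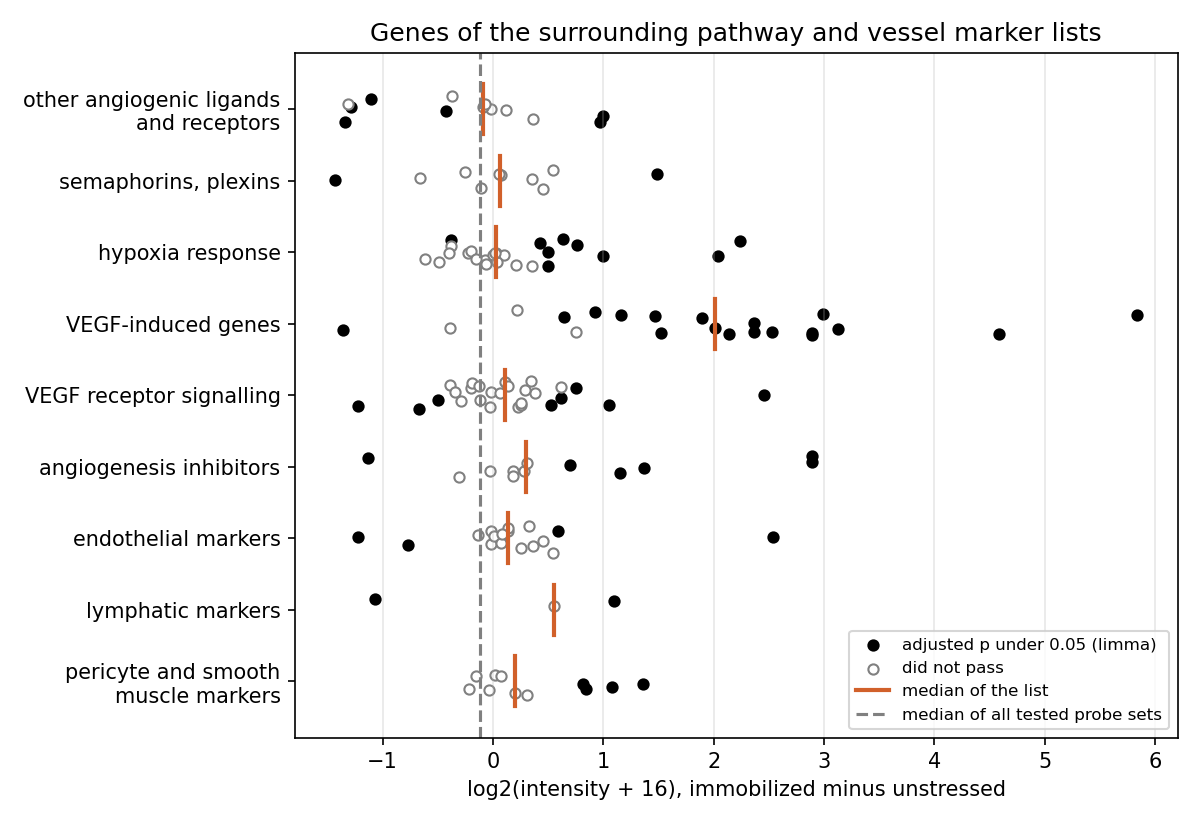
Log2 change of each tested gene of the 6 surrounding pathway lists and of 3 vessel cell marker lists, with 1 point per gene, filled where the adjusted p was under 0.05. Orange bars are list medians and the dashed line is the median of all tested probe sets, -0.12. The genes induced by VEGF have a median of 2.01, and the other lists have medians between -0.09 and 0.55. The point at 4.59 is Ptgs2, whose unstressed readings lie within the Bacillus range.

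Likeness to a member was measured over the 4 arrays as the root mean squared difference of log2 values, each gene taken relative to its own unstressed mean, among 10250 named genes. The genes nearest to Flt1 1377113_at were Cpeb4 (0.118), Cldnd1 (0.130) and Hbegf (0.142), and those nearest to Vegfa 1373807_at were Dnajc5 (0.013), Rbpms2 (0.016) and Pi4k2a (0.018). Cpeb4, a regulator of mRNA translation, read 12842 and 11551 unstressed and 34988 and 29255 immobilized. With only 4 arrays many genes come near to any pattern.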

How the data were processed

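The authors deposited 1 linear intensity per probe set for each of 4 single-colour arrays. How probes were summarised and which build or tool was used was not stated in the labels or file headers used here. Judged by its values, every array had been scaled to a trimmed mean of 2501 (2% of values left out at each end), with a spread of 0.00572% between arrays, and that scaling was kept. The 57 control probe sets were left out. Groups came from the sample descriptions, and replicate numbers follow accession order and pair nothing. Median intensities were 827 to 955, and Actb control probes near the 3' end over those near the 5' end gave 2.15 and 1.90 unstressed and 1.99 and 1.62 immobilized. There were 0 unused sample columns.

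Log2(intensity + 16) was fitted with limma 3.58.1 in R 4.3.3 (lmFit, eBayes with an intensity trend, two-sided, Benjamini-Hochberg over 18625 tested probe sets, threshold 0.05, 6.81 degrees of freedom). The offset of 16 understates changes of dim genes. The fit was run on simulated data with independent noise and few changed probe sets, so that run does not give its error rate in these arrays. A listed gene is represented by its brightest tested probe set. Gene names are those of the platform annotation, 20758 of 20826 single names found in a GRCr8 gene table. Promoter sequences are RefSeq's. Named genes were all member probe sets, the 3 largest called changes of each list or the 2 largest where none was called, every gene of lists with 5 or fewer tested, and the nearest genes in likeness; any further gene was picked once its values had been seen. The members and lists were chosen with earlier results of these data known. Alternatives were quantile normalization, median centring, offsets of 1 and 64, no filter, a filter at the 60th percentile, no trend, robust estimation, each array left out, a threshold of 0.10 and 1 probe set per gene. Plots were drawn with matplotlib 3.10.9.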

Additional observations from a re-analysis of the deposited data

How the results depend on the processing

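The rises of Vegfc and Flt1 1377113_at kept their direction and call under 11 of 12 alternatives each, with log2 changes of 0.78 to 1.18 and 1.20 to 1.71. The falls of Kdr, Vegfb and Nrp1 1373577_at kept their direction under all 12 but their call under 8, 5 and 5. The count of members higher was 2 and ranged from 1 to 2 with 1 array left out. The count lower was 3, with 0 after median centring, 0 without the intensity trend, and 0 to 4 with 1 array left out. Over the 6 pathway lists together 37 genes rose and 11 fell; the falls were 6 after median centring and 7 without the trend, and with 1 array left out the rises ranged from 19 to 40 and the falls from 4 to 14. Of the 37 rises 17 were in the list of genes that VEGF induces, whose rise was already known when that list was made. The pooled count of rises is therefore not independent evidence either. With an array left out the spread rests on the remaining pair, and the lone array is assumed to vary like the other group.

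The signs that turned belong to values that had not passed a test. After quantile normalization this held for Vegfa 1373807_at (-0.01), Nrp2 1382995_at (0.09) and the difference between the Vegfa probe sets (-0.20, from 0.07), and after median centring for Nrp2 (0.10). With 1 array left out it held for Vegfa 1373807_at (-0.01 to 0.22) and Vegfa 1370081_a_at (-0.13 to 0.21). It held likewise for Flt1 1369087_at (-0.01 to 0.29), Flt4 (-0.32 to 0.58) and Nrp2 (-0.16 to 0.09). Among differences it held for the Vegfa pair (-0.22 to 0.35) and the Kdr pair (-1.65 to 0.15, from -0.75). It held too for Flt1 1369087_at minus 1370492_a_at (-0.06 to 0.22, from 0.08). Flt1 1370492_a_at, under the filter with all arrays (0.06), passed it only without unstressed 1 (-0.22) and without immobilized 1 (0.19). Its range over all arrays left out is therefore not given. The cause was not tested. No paired analysis was possible because the labels give no replicate numbers that the groups share. Median centring cancels in a difference between probe sets of one array and was not run for those. Intensities near the Bacillus controls limit what Kdr 1397868_at and Nrp2 1369824_at can show.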
